A study of Homo sapiens with 9 samples.

Results

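The comparison set 6 RNA-seq libraries from cells overexpressing either of 2 forms of NFE2L1 against 3 libraries from control cells, and looked for genes that lay on the same side of control in both forms. A gene was taken as shared when all 6 overexpressing TPM values (transcript abundance scaled for transcript length and to a fixed sum per library) lay above, or all 6 below, all 3 control values. Of 14118 genes that reached 1 TPM in at least 3 libraries, 2198 met this rule (15.6%), 1406 higher (9.96%) and 792 lower (5.61%). The rule used the measured values of this contrast, so the values of the shared genes against control are given as a description, with no test.

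All 9 libraries carry the label HepG2, a human line from a liver tumor. The control cells are labelled WT, and the protocol gives them the vector pLVX, a lentiviral vector. The other groups are labelled NFE2L1 overexpression and NFE2L1DC overexpression. In the protocol a delta precedes the C of the latter name, which commonly marks a protein without its C-terminal part. How much was removed is not stated in the labels. Each group is a single cell line with 3 libraries, so a form and the line that carries it cannot be told apart. Whether the 3 libraries were separate cultures is not stated, and p-values then measure only the spread between these libraries. The medium was rich in glucose and held serum for all groups, and no other treatment is named.

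NFE2L1, also called NRF1 or TCF11, belongs to the cap'n'collar (CNC) transcription factors. It is made as a glycoprotein of the endoplasmic reticulum, from which it is extracted, deglycosylated and cut before it enters the nucleus. There it pairs with small MAF proteins on antioxidant response elements, and it is best known for raising the genes of proteasome subunits when the proteasome is impaired. Its DNA-binding and dimerization domain, a basic leucine zipper, lies toward the C-terminal end. In mouse liver, loss of the factor is known to cause steatosis and tumors.

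The libraries lacked the markers of the labelled line. Of 12 HepG2 and hepatocyte markers, 10 were under 1 TPM in all 9 libraries, with a highest value of 0.238 TPM. ALB, GPC3, APOB, SERPINA1 and FGB, the genes of albumin, glypican 3, apolipoprotein B, alpha-1 antitrypsin and fibrinogen beta, were at 0 in every library. The remaining markers, KRT8 and KRT18, are keratins of many epithelia, at 766 to 1430 TPM. Of 25 plasma protein genes of the liver 23 were under 1 TPM throughout, all but A2M and VTN. The cells are therefore called by their label only. Among markers of other cells, 7 of 8 endothelial genes (all but ESAM) and 9 of 10 blood genes (all but CD68) were under 1 TPM in all libraries. The summed fibroblast and stellate markers lay at 148 to 170 TPM in control, 109 to 122 TPM with NFE2L1 and 102 to 118 TPM with NFE2L1DC, most of it from COL3A1. ACTA2 was also lower, at 18.3 to 18.7 TPM in control and 9.99 to 13.6 TPM in the overexpressing libraries. COL1A1 overlapped between these groups, at 19.1 to 21 TPM and 15.9 to 22.2 TPM. COL1A2 was at 0 in every library and LUM at most at 0.712 TPM. Whether such cells were present, and their part in other differences, was not tested.

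Control replicate 3 stood apart from the other controls. Along the leading axis of a principal component analysis of log2(TPM + 1), with 41.9% of the variance, control replicates 1 and 2 lay at -43.8 and control replicate 3 at 5, beside -1.2 to 23 for the overexpressing libraries. Its deviation from the other controls ran against GC content (Spearman's rho -0.611 across 14085 genes, which are not independent). Control replicate 3 was the control nearest to the overexpressing values in 681 of the 1406 shared higher genes and in 386 of the 792 shared lower genes. Without it 5137 genes would be shared and higher and 1304 shared and lower. Without any other single library the counts were 1504 to 1992 and 860 to 1060. The part of RNA quality or library preparation in this was not tested. Between 21809 and 23396 genes were above 0 TPM in each library, and the sequencing depth is unknown.

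**Figure D1:**
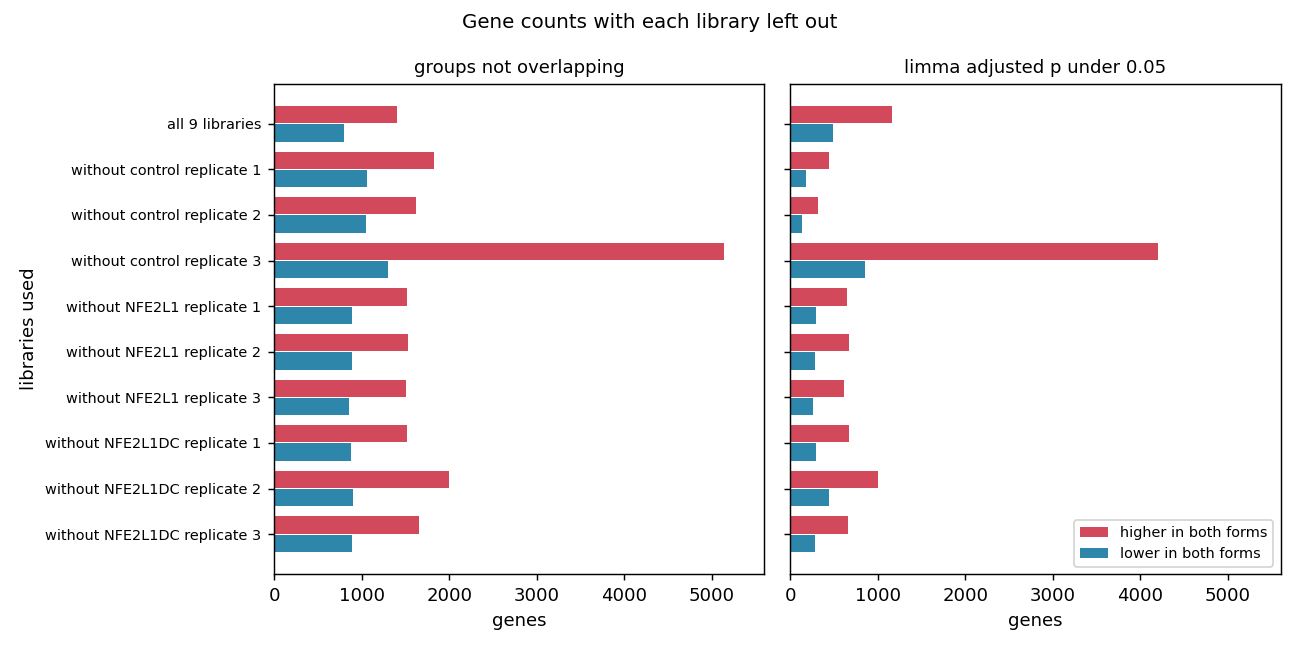
Number of genes whose groups do not overlap (left) and number called by limma at an adjusted p under 0.05 (right), higher (red) or lower (blue) in both forms, with all 9 libraries and with each library left out in turn; bars are counts of genes. Without control replicate 3 there are 5137 shared higher genes and 4198 genes called higher.

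The same contrast was also tested across all genes with limma (2-sided, Benjamini-Hochberg over 14118 genes, called at an adjusted p under 0.05). It called 1165 genes higher (8.25%) and 484 lower (3.43%), and 1345 of these 1649 were among the shared genes. The total of 1649 became 616, 445 and 5049 without control replicates 1, 2 and 3. It became 942, 955 and 874 without NFE2L1 replicates 1, 2 and 3, and 966, 1441 and 944 without NFE2L1DC replicates 1, 2 and 3. Calls were made in all 9 of the fits that leave out a library for 396 genes, of which 258 were shared higher and 118 shared lower. The median log2 fold change of all tested genes was 0.14, and 0.02 after median-of-ratios scaling. Under that scaling 610 genes were called higher and 628 lower, and 919 genes were shared and higher and 952 shared and lower. Of the shared genes, 553 higher (3.92% of those tested) and 335 lower (2.37%) also did not overlap under median-of-ratios scaling, without mitochondrially encoded genes and after correction for GC content and length. These are called the stable shared genes below.

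NFE2L1 itself was a stable shared gene. Its gene, ENSG00000082641, lies on the plus strand of GRCh38 chromosome 17, 48048329 to 48061487, and NFE2L1 was at 104, 81.7 and 64 TPM in control, at 207, 181 and 354 TPM with NFE2L1 and at 445, 427 and 472 TPM with NFE2L1DC. All 6 overexpressing libraries lay above control, and all 3 NFE2L1DC libraries lay above the NFE2L1 libraries. The mean of both forms was 4.17-fold the control mean. The difference between the forms, NFE2L1 minus NFE2L1DC, was -0.92 on the log2 scale (95% interval -1.46 to -0.37) and did not pass over all genes (limma adjusted p = 0.228). Gene-level TPM does not separate the introduced from the endogenous transcript. The related factors NFE2L2 and NFE2L3 overlapped with control.

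Most shared genes differed from control by little. The gap, the distance on log2(TPM + 1) between the nearest control and overexpressing values, had a median of 0.11 in both directions and reached 0.5 in 68 higher and 38 lower genes. A pooled log2 fold change (the mean of both forms minus control, on log2(TPM + 1)) of at least 1 in size was found in 107 higher and 31 lower genes.

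Shared higher and shared lower genes differed in kind. Protein-coding genes made up 93.5% of the higher and 74.4% of the lower genes, beside 81.1% of all tested. Processed pseudogenes, copies of spliced transcripts whose reads can be mistaken for those of the parent gene, made up 0.284% and 11.6%, beside 3.46%. The median transcript length was 3231 bases for the higher, 2088 for the lower and 3064 for all tested genes. Median GC content was 51.8%, 56.5% and 49.5% in the same order. The pooled log2 fold change had a rho of -0.375 with GC content across 14085 genes, and the part of this trend in the makeup of the shared genes was not tested. Of the higher genes 58 were under 1 TPM in every control library, and so passed the expression filter only through the overexpressing libraries; 18 of the lower genes passed only through control. A further 166 higher and 214 lower genes with separate groups lay among the 44056 genes left out by that filter.

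The largest gaps on the higher side belonged to interferon-stimulated genes and to genes of the ERK pathway. The ERK pathway carries growth factor signals from receptor tyrosine kinases through RAS, RAF and MEK to the kinase ERK, which raises the transcription of ETS factors, cyclin D1 and its own inhibitors.

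**Figure D2:**
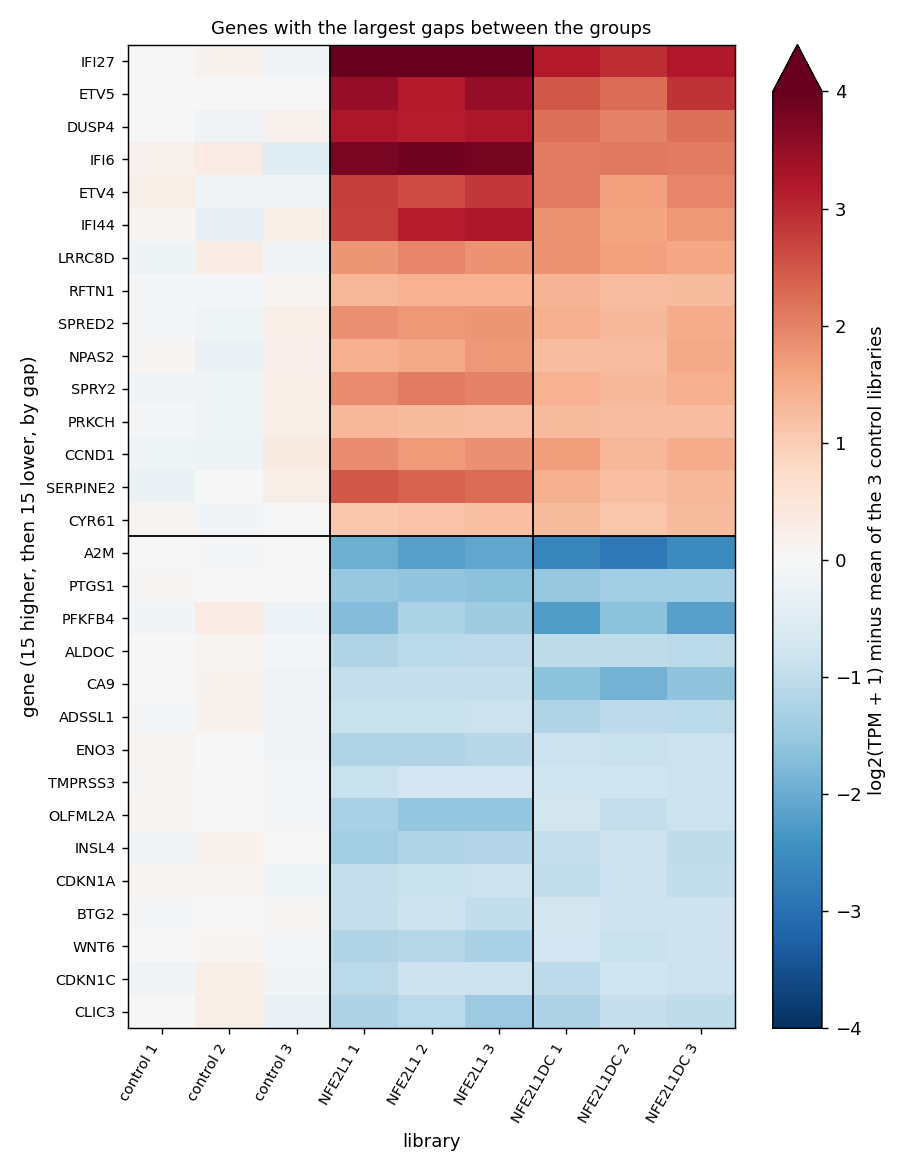
Heat map of log2(TPM + 1) minus the mean of the 3 control libraries, for the 15 shared higher and 15 shared lower protein-coding genes with the largest gaps among those with a higher group mean of at least 10 TPM (rows) in each of the 9 libraries (columns); lines separate the groups, and the color scale ends at 4, which the IFI27 values of the NFE2L1 libraries exceed. IFI27 has the largest gap (2.80) among the higher genes and A2M (1.91) among the lower genes.

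Of 22 tested genes in a list of ERK output and feedback, 17 were shared and higher (77.3%) and none was shared and lower, and all 17 were stable shared genes. Its genes had a median log2 fold change of 0.98, beside 0.14 for all genes, and 0.91 beside 0.02 after median-of-ratios scaling. Limma called 16 of the 22 higher and none lower, and 15 to 19 higher with any single library left out. Over all tested genes 9.96% were shared and higher and 5.61% shared and lower, and limma called 8.25% higher and 3.43% lower. The counts of this list and of each list below are to be read beside these shares. The list was chosen with earlier results of these data known, as were all lists here, and its counts are no independent evidence of its direction.

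Among the ETS transcription factors of this list, ETV5 (chromosome 3, 186046308 to 186110318) was at 3.41, 3.23 and 3.31 TPM in control, at 48.7, 37.5 and 48.2 TPM with NFE2L1 and at 23, 19.2 and 31.3 TPM with NFE2L1DC. The lowest overexpressing value was well above the highest control value, and the mean of both forms was 10.4-fold the control mean. ETV4 (chromosome 17, 43527844 to 43579620) was at 10.3, 7.7 and 7.92 TPM, at 64.8, 57.6 and 66.6 TPM and at 39.2, 28.8 and 35.9 TPM in the same order, with a fold of 5.64. Both factors were higher with NFE2L1 than with NFE2L1DC, without overlap between the forms. The difference passed for ETV4 (0.85, SE 0.15, limma adjusted p = 0.0354) but not for ETV5 (0.86, SE 0.18, limma adjusted p = 0.0877). The ETV4 call held in 8 of 18 other settings, with adjusted p from 0.0153 to 0.19, and was lost without control replicate 2 and without any single overexpressing library.

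The feedback inhibitors had the same order of groups. DUSP4, a nuclear phosphatase that inactivates ERK, was at 0.812, 0.681 and 1.07 TPM in control, at 16.4, 15.2 and 16.2 TPM with NFE2L1 and at 7.49, 6.38 and 7.49 TPM with NFE2L1DC. SPRY2, a Sprouty inhibitor of receptor signaling, was at 2.54, 2.36 and 3.61 TPM, at 13.1, 15.1 and 14.1 TPM and at 8.89, 8.37 and 9.18 TPM. SPRED2, a related inhibitor that acts on RAF activation, was at 4.43, 4.01 and 5.74 TPM, at 19, 17.8 and 18.2 TPM and at 14.3, 12.9 and 14.8 TPM. In each of these 3 genes the NFE2L1 line was highest, the NFE2L1DC line between and control lowest, with no overlap between any of the groups. SPRY4, another Sprouty, was at 0.0272, 0.125 and 0.101 TPM in control, at 4.35, 3.47 and 3.53 TPM with NFE2L1 and at 2.26, 0.881 and 3.14 TPM with NFE2L1DC, so that it was near 0 in control and its NFE2L1DC libraries were scattered. DUSP6, the cytosolic ERK phosphatase, chosen after its values were seen, averaged 0.759 TPM in control, 7.26 TPM with NFE2L1 and 2.82 TPM with NFE2L1DC. The difference between the forms was 1.06 for DUSP4 (SE 0.14, limma adjusted p = 0.00797), a call that held in 16 of 18 other settings and was lost without NFE2L1 replicate 1 or 3 (highest adjusted p 0.0592). For SPRY2 it was 0.62 (95% interval 0.28 to 0.96, limma adjusted p = 0.173) and for SPRED2 0.37 (0.06 to 0.68, adjusted p = 0.508).

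The growth output of the list was shared as well. CCND1, which encodes cyclin D1 (chromosome 11, 69641087 to 69654474), was at 31.5, 30.6 and 45.6 TPM in control, at 133, 117 and 129 TPM with NFE2L1 and at 114, 91 and 101 TPM with NFE2L1DC. Control replicate 3 was the highest control, and the fold was 3.18. Its difference between the forms was 0.31 (95% interval -0.04 to 0.65, limma adjusted p = 0.673). FOSL1, an AP-1 subunit induced by ERK, and IER3, an immediate early gene, were chosen after their values were seen. FOSL1 averaged 17.4 TPM in control, 69.4 TPM with NFE2L1 and 39.6 TPM with NFE2L1DC. IER3 averaged 76.7 TPM in control, 208 TPM with NFE2L1 and 168 TPM with NFE2L1DC. The transcription factor MYC averaged 20.8 TPM in control, 28.9 TPM with NFE2L1 and 30.3 TPM with NFE2L1DC and was shared by a narrow gap. The 5 genes of the list that overlapped with control were SPRED1, ETV1, EMP1, SPHK1 and PLAUR.

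Upstream of ERK, 3 of 9 tested genes of the EGF receptor family and its ligands were shared and higher (33.3%, beside 9.96% of all tested genes). All 3 were ligands. TGFA, transforming growth factor alpha, was at 0.329, 0.679 and 0.520 TPM in control, at 3.48, 2.68 and 2.55 TPM with NFE2L1 and at 1.8, 1.98 and 1.87 TPM with NFE2L1DC. NRG1, a neuregulin that binds ERBB3 and ERBB4, was at 0.406 to 1.36 TPM in control, 2.15 to 2.94 TPM with NFE2L1 and 1.44 to 2.49 TPM with NFE2L1DC. EPGN, epigen, was at 1.32, 1.15 and 0.940 TPM, at 9.02, 12.7 and 17.8 TPM and at 2.26, 1.41 and 2.05 TPM. TGFA was well apart from control, while the NFE2L1DC values of NRG1 and EPGN lay only just above it. EPGN was higher with NFE2L1 than with NFE2L1DC by 2.25 (SE 0.23, limma adjusted p = 0.00226), a call made in all 18 other settings. The receptors EGFR, ERBB2 and ERBB3 overlapped with control, with log2 fold changes of 0.33, -0.03 and 0.01. The ligands EREG (0.48) and HBEGF (0.14) overlapped with control too, as did ERRFI1 (0.53). Levels near 1 TPM make the folds of TGFA, NRG1 and EPGN uncertain.

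**Figure D3:**
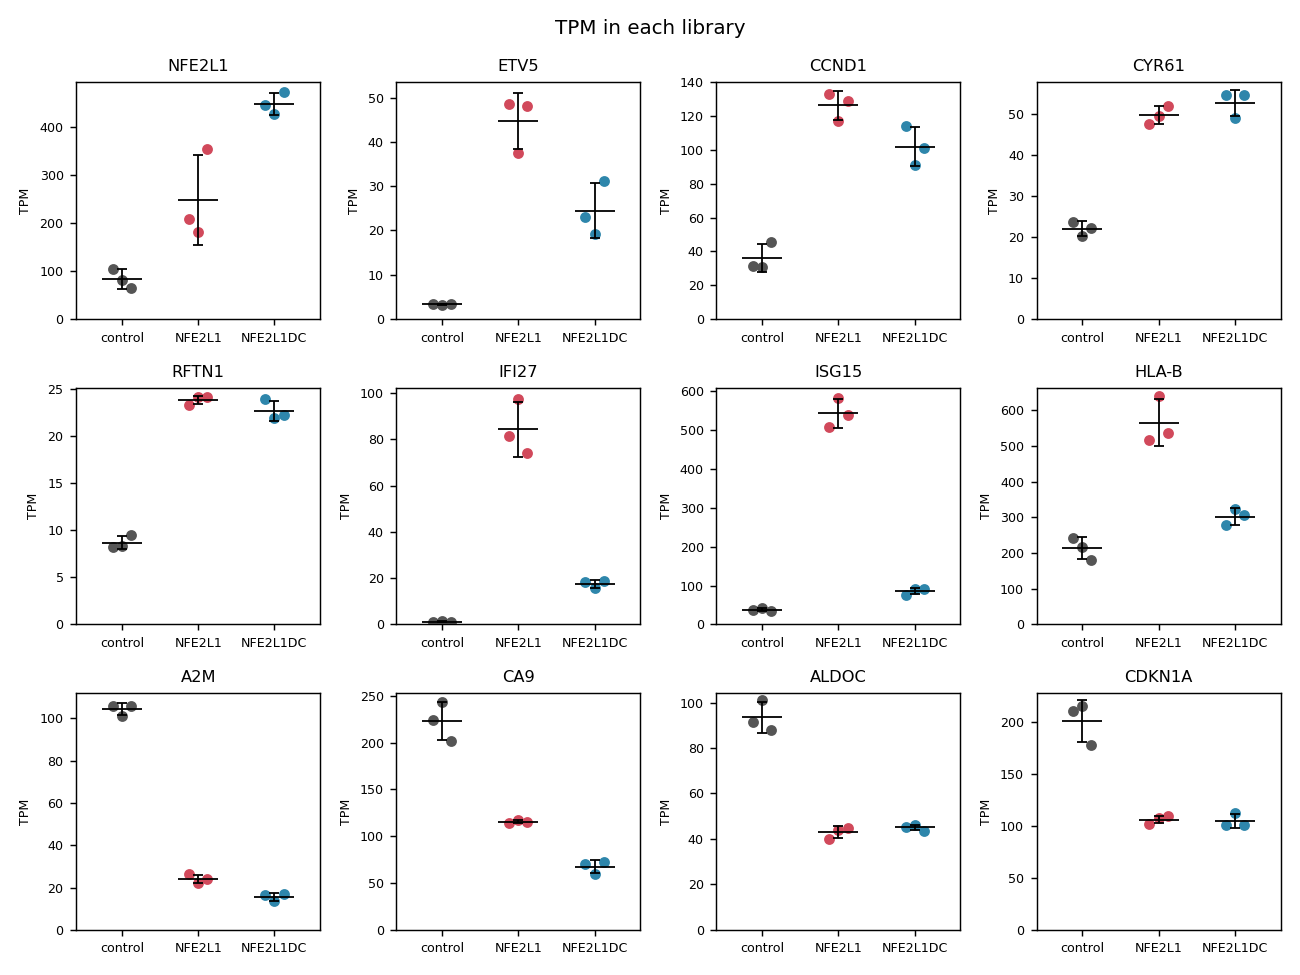
TPM of 12 genes in each library (points, by group) with the mean (bar) and standard deviation (error bar) of each group (n = 3); each vertical axis starts at 0. CYR61 and RFTN1 sit at similar levels in both forms, IFI27 and ISG15 are far higher with NFE2L1, and CA9 and A2M are lowest with NFE2L1DC.

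Interferon-stimulated genes are raised when type I interferon signals through its receptor and JAK kinases to transcription factors that bind the interferon-stimulated response element. They encode antiviral effectors such as the oligoadenylate synthetases (OAS) and the ubiquitin-like ISG15 with its conjugating enzyme UBE2L6. Of 35 tested genes of this list 14 were shared and higher (40.0%, beside 9.96% of all tested genes). Of these 8 were stable, and none of the list was shared and lower. The median log2 fold change was 1.09, beside 0.14 for all genes. Limma called 31 of the 35 higher, 28 or 29 without any single overexpressing library, and 22, 24 and 32 without control replicates 1, 2 and 3. Thus 21 genes of the list overlapped with control in at least 1 library, among them IFIT1 and IFIT3 with log2 fold changes of 1.72 and 1.77.

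IFI27, an interferon-inducible protein of mitochondria (chromosome 14, 94104836 to 94116698), had the largest gap of all shared genes. It was at 1.13, 1.36 and 0.953 TPM in control, at 81.2, 97.4 and 74.2 TPM with NFE2L1 and at 18.5, 15.5 and 18.7 TPM with NFE2L1DC. The groups were far apart and each was tight. IFI6, a related antiviral protein, was at 51, 57.9 and 32.1 TPM, at 648, 696 and 664 TPM and at 197, 199 and 194 TPM. ISG15 (chromosome 1, 1001138 to 1014540) was at 38.2, 41.7 and 33.7 TPM, at 508, 582 and 540 TPM and at 75.7, 90.8 and 91.4 TPM. Its NFE2L1DC libraries were above control, but much nearer to control than to the NFE2L1 libraries. IFI44 was at 1.19, 0.669 and 1.44 TPM, at 12.8, 17.1 and 18.4 TPM and at 6.28, 5.22 and 5.86 TPM, in the same order of groups.

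To show what the promoters of these genes hold, the 200 bases before the first listed transcription start of IFI27, ISG15 and IFI6 are printed from the RefSeq promoter table (GRCh38.p14), 5′ to 3′ on the strand of the gene. The windows are chr14:94110536-94110735 (plus strand), chr1:1013297-1013496 (plus strand) and chr1:27672193-27672392 (minus strand). Capitals mark each match on either strand to GAAANNGAAA, the core of the interferon-stimulated response element.
IFI27: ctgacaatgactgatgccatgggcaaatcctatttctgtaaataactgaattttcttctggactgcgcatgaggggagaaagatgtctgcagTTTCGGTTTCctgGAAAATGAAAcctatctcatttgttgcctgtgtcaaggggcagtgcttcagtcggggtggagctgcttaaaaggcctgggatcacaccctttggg
ISG15: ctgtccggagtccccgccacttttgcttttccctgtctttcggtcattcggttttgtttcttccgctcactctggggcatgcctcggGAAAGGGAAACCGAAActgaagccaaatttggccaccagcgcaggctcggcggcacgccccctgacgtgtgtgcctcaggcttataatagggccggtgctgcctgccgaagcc
IFI6: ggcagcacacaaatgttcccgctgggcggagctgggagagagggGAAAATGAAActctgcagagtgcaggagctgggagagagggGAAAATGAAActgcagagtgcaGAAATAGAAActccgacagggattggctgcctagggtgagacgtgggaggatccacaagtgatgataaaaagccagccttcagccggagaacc
IFI27 held 2 matches, at 108 and 95 bases before the start, the former on the opposite strand. ISG15 held 2 overlapping matches, at 113 and 107 bases before the start, and IFI6 held 3, at 156, 115 and 93 bases before it. Of the 2198 shared genes 1583 matched an entry in the promoter table, which spans 250 bases before to 50 after the start. The motif was found in 37 of 1095 shared higher genes with an entry (3.38%), in 12 of 488 shared lower genes (2.46%), in 252 of 9861 tested genes (2.56%) and in 996 of all 27305 promoters (3.65%). It was found in 10 of the 33 shared higher genes with an entry that were called higher with NFE2L1 than with NFE2L1DC (30.3%), genes whose choice rests on these libraries. A match describes the letters and is not evidence of binding.

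The antioxidant response element core bound by cap'n'collar factors and small MAF proteins, TGACNNNGC on either strand, was found in 16.2% of the shared higher, 15.4% of the shared lower and 15.5% of all tested genes with an entry. The AP-1 site TGANTCA, which can overlap with that core, was found in 4.47%, 5.53% and 4.24%. Over all promoters in the table the shares were 13.6% and 7.76%. Of the 33 shared higher genes with an entry that were called higher with NFE2L1 than with NFE2L1DC, 8 held the antioxidant core (24.2%) and 3 the AP-1 site (9.09%). These shares rest on few genes and were not tested.

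The rule did not use the difference between the forms, but it used the same 6 libraries, and the fit takes its spread from the controls too. The test of this difference was therefore run over all genes, and its calls among the shared genes are not independent of how these were chosen. Over all genes limma called 101 higher with NFE2L1 than with NFE2L1DC (0.715%) and 11 lower (0.0779%). Among the 1406 shared higher genes 47 were higher with NFE2L1 and none was lower, and among the 792 shared lower genes 3 were higher with NFE2L1 and 5 lower. Of the 47, 5 (HSH2D, IGFN1, OAS2, PHLDA1 and RSAD2, named after their values were seen) reached the expression filter only through the NFE2L1 libraries, so that a difference between the forms was built into their choice, and 42 would have passed it without them. Without NFE2L1 replicates 1, 2 and 3 the 50 shared genes called higher with NFE2L1 became 24, 24 and 22. They became 34, 24 and 23 without NFE2L1DC replicates 1, 2 and 3, and 40, 38 and 58 without control replicates 1, 2 and 3. The 5 called lower became 1 or 2 without any single library other than control replicate 3, and 7 without that library.

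Interferon genes led these differences. Of the 14 shared interferon-stimulated genes 12 were called higher with NFE2L1, 10 of which passed the expression filter without the NFE2L1 libraries (all but OAS2 and RSAD2). Of all 35 tested 27 were called higher, 22 of which passed the filter without those libraries. ISG15 differed by 2.65 (SE 0.11, limma adjusted p = 5.79e-06), UBE2L6 by 2.48 (SE 0.15, adjusted p = 7.88e-05) and IFI27 by 2.20 (SE 0.14, adjusted p = 8.51e-05). OAS1, which makes the activator of RNase L, differed by 2.16, the helicase coactivator HELZ2 by 2.10, OASL by 1.97 and IFI6 by 1.76. These 7 genes and EPGN were called between the forms in all 18 other settings tried.

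Single libraries show how far the NFE2L1DC line lay from control in these genes. OAS1 was at 8.3, 10.9 and 8.07 TPM in control, at 86.5, 89.2 and 103 TPM with NFE2L1 and at 22.3, 17.9 and 20 TPM with NFE2L1DC. HELZ2 was at 4.61, 4.08 and 4.26 TPM, at 27.8, 28.2 and 26.4 TPM and at 6.63, 5 and 5.36 TPM, and OASL was at 9.05, 11.6 and 8.19 TPM, at 58.7, 72.4 and 65 TPM and at 14.1, 13.6 and 20.9 TPM. OAS1 was clearly apart from control in both forms, while HELZ2 and OASL were shared only by gaps of 0.10 and 0.21. OAS2, chosen after its values were seen, averaged 0.0217 TPM in control, 9.28 TPM with NFE2L1 and 0.235 TPM with NFE2L1DC. It passed the expression filter only through the NFE2L1 libraries, and these levels are given as a description. OAS3, also chosen after its values were seen, averaged 11.1 TPM in control, 65 TPM with NFE2L1 and 17.4 TPM with NFE2L1DC.

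**Figure D4:**
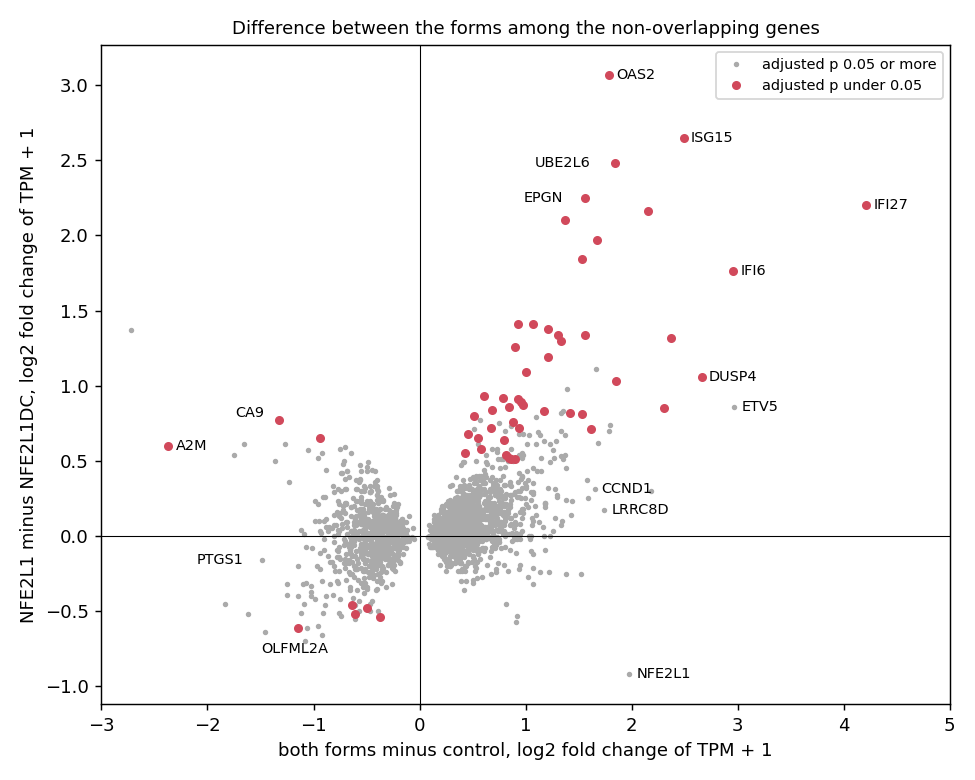
Each point is a shared gene, placed by the log2 fold change of both forms against control (horizontal) and of NFE2L1 minus NFE2L1DC (vertical), both on log2(TPM + 1); colored points have a limma adjusted p under 0.05 in the vertical contrast. The 47 such points among the higher genes are all above 0, while among the lower genes CA9 (0.77) and A2M (0.60) are above 0 and OLFML2A (-0.61) below.

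Most shared genes showed no called difference between the forms. Of the 107 higher genes with a log2 fold change of at least 1, 25 were called higher with NFE2L1 and 82 were not called, and of the 31 lower genes 28 were not called. A missed threshold does not show that the forms act alike, and the interval says how close they were. For 963 shared higher genes (68.5%) and 535 shared lower genes (67.6%) the 95% interval of the difference lay within 0.5 of 0 on the log2 scale. That share was 39.8% over all tested genes, and the rule favors genes with a small spread.

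Several genes with large gaps had close levels in both forms. RFTN1, raftlin, a protein of lipid rafts (chromosome 3, 16313574 to 16514026), was at 8.22, 8.29 and 9.48 TPM in control, at 23.3, 24.1 and 24.1 TPM with NFE2L1 and at 23.9, 21.9 and 22.2 TPM with NFE2L1DC. PRKCH, protein kinase C eta, was at 3.74, 3.35 and 4.76 TPM, at 11.3, 10.7 and 10.6 TPM and at 10.8, 10.6 and 10.5 TPM. LRRC8D, a subunit of the volume-regulated anion channel (chromosome 1, 89821014 to 89936611), was at 4.1, 6.2 and 4.43 TPM, at 18.8, 21.5 and 19.1 TPM and at 19.2, 17.2 and 16 TPM. The forms overlapped in all 3 genes, with differences of 0.07 (95% interval -0.16 to 0.30), 0.03 (-0.28 to 0.33) and 0.17 (-0.17 to 0.52). NPAS2, a circadian transcription factor, was 2.78-fold higher with a difference of 0.23 (-0.09 to 0.55). STX6, a syntaxin of vesicle fusion, was at 4.34, 3.78 and 13.8 TPM in control, at 15.7, 15.6 and 15.1 TPM with NFE2L1 and at 16, 14.3 and 14.1 TPM with NFE2L1DC, so that control replicate 3 lay far above the other controls and just below the overexpressing libraries.

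Targets of the coactivator YAP and of TGF-beta were of this kind. CYR61 and CTGF encode secreted matricellular proteins and are standard targets of both. CYR61 (chromosome 1, 85580761 to 85583962) was at 23.7, 20.2 and 22.2 TPM in control, at 47.5, 49.6 and 51.9 TPM with NFE2L1 and at 54.6, 49.1 and 54.6 TPM with NFE2L1DC. CTGF was at 2.59, 2.46 and 2.65 TPM, at 8.1, 7.27 and 6.75 TPM and at 8.52, 6.35 and 7.36 TPM. The forms overlapped in both genes, with differences of -0.09 (95% interval -0.30 to 0.13) and 0.00 (-0.33 to 0.32). AMOTL2, an angiomotin that restrains YAP, was 2-fold higher and THBS1, thrombospondin 1, 1.98-fold higher. Of 18 tested genes of the list 5 were shared and higher (27.8%, beside 9.96% of all tested genes). AXL and ACTA2 were shared and lower (11.1%, beside 5.61%), and the median log2 fold change was 0.48. Limma called 5 higher and 2 lower, ACTA2 and TAGLN, and 9 and 4 without control replicate 3. AXL was not called, and TAGLN overlapped with control. No gene of the list was called lower without control replicate 1 or 2, and 1 was without NFE2L1 replicate 3.

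**Figure D5:**
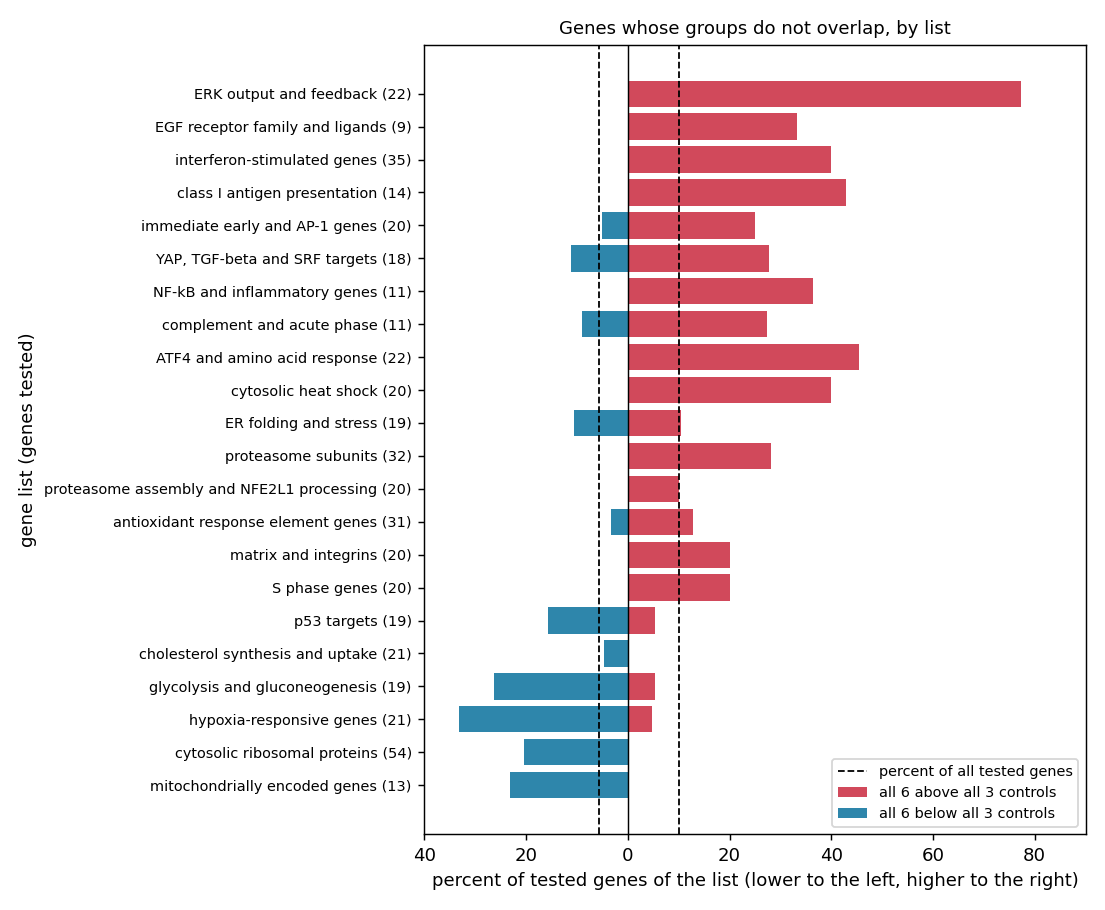
Percent of the tested genes of 22 lists that were shared and higher or shared and lower; dashed lines mark the percent over all tested genes (9.96 higher, 5.61 lower). ERK output reaches 77.3% higher, and hypoxia-responsive genes 33.3% lower.

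Genes of class I antigen presentation, many of them also induced by interferon, were shared in 6 of 14 tested (42.9%). All 6 were higher, beside 9.96% of all tested genes, and 1 was stable. The median log2 fold change was 0.48. HLA-B, a class I heavy chain, was at 241, 218 and 180 TPM in control, at 518, 640 and 536 TPM with NFE2L1 and at 278, 323 and 306 TPM with NFE2L1DC. PSMB9, an immunoproteasome subunit, was at 10.4, 9.49 and 8.21 TPM, at 21.9, 26.8 and 23.6 TPM and at 11.7, 13.4 and 13.3 TPM. In both genes the NFE2L1DC values lay close above control. HLA-B differed between the forms by 0.89 (SE 0.12, limma adjusted p = 0.0102), and the call was lost without NFE2L1DC replicate 3 and under median-of-ratios scaling (highest adjusted p 0.125). Reads of HLA-B can be shared with other class I genes. Limma called 8 of the 14 higher, 3 after median-of-ratios scaling, and 5 without NFE2L1 replicate 1 or 3, NFE2L1DC replicate 3 or control replicate 2.

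Immediate early, inflammatory and complement genes were shared in part. Of 20 tested immediate early and AP-1 genes 5 were shared and higher (25%, beside 9.96% of all tested genes). JUND was shared and lower (5%, beside 5.61%). DUSP1, a phosphatase of stress-activated kinases, was at 50.7, 47 and 46 TPM in control, at 104, 106 and 104 TPM with NFE2L1 and at 88.8, 87.1 and 87.3 TPM with NFE2L1DC, with tight groups throughout. FOSL2, an AP-1 subunit, was 1.73-fold higher, while FOS and JUN overlapped with control. Limma called 9 of the 20 higher and JUND lower, with 4 or 5 higher without any single library other than control replicate 3 (11) and NFE2L1DC replicate 2 (8). The JUND call was lost without 6 of the 9 libraries, and held without control replicate 3, NFE2L1 replicate 1 or NFE2L1DC replicate 2. Of 11 tested NF-kB and inflammatory genes 4 were shared and higher (36.4%, beside 9.96% of all tested genes). They were led by ICAM1, a leukocyte adhesion molecule. ICAM1 was at 3.62 to 4.81 TPM in control, 9.23 to 11.5 TPM with NFE2L1 and 7.56 to 8.77 TPM with NFE2L1DC. Limma called 6 of the 11 higher, and 4 without control replicate 1 or 2. Of 11 tested complement and acute phase genes 3 were shared and higher (27.3%) and 1 lower (9.09%). These shares were 9.96% and 5.61% over all tested genes. Complement component C3 was at 7.27 to 8.9 TPM in control, 13.4 to 14.9 TPM with NFE2L1 and 11.6 to 12.8 TPM with NFE2L1DC. The lower gene was CD59, an inhibitor of the membrane attack complex, which was at 178 to 186 TPM in control, 151 to 161 TPM with NFE2L1 and 141 to 153 TPM with NFE2L1DC. Limma called 4 of the 11 higher and CD59 lower, and CD59 was not called without control replicate 1 or 2, NFE2L1 replicate 3 or NFE2L1DC replicate 3.

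Of 20 tested matrix and integrin genes 4 were shared and higher (20%), with a median log2 fold change of 0.18. FN1, fibronectin, was at 39.5, 34.2 and 36 TPM in control, at 78.2, 80.1 and 82.1 TPM with NFE2L1 and at 59.6, 50.3 and 58.1 TPM with NFE2L1DC. SERPINE2, protease nexin 1, which is outside that list, was at 6.01, 7.5 and 8.93 TPM, at 46.2, 42.3 and 38.5 TPM and at 21.7, 18.5 and 20.2 TPM. Both had the order of the ERK feedback genes, with NFE2L1 highest and no overlap between the forms. Limma called 4 of the list higher, 9 without control replicate 3, and 2 without control replicate 2, NFE2L1 replicate 2 or 3, or NFE2L1DC replicate 1 or 3. COL3A1, a fibrillar collagen that is also outside that list, went the other way and was shared and lower. It was at 107, 99.7 and 114 TPM, at 77.3, 74.2 and 69.9 TPM and at 72.4, 61.3 and 74.8 TPM.

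Proteasome subunits, the best known targets of NFE2L1, were shared in 9 of 32 tested genes (28.1%), all higher and 4 of them stable. Their median log2 fold change was 0.25 beside 0.14 for all genes, and 0.11 beside 0.02 after median-of-ratios scaling. PSMA3, an alpha ring subunit of the core, was at 29.4, 36.2 and 46.2 TPM in control, at 60.5, 59.7 and 65.9 TPM with NFE2L1 and at 63.9, 55.2 and 61.8 TPM with NFE2L1DC. PSMD11, a lid subunit, was at 56.1, 60.7 and 60.1 TPM, at 90, 83.9 and 88.4 TPM and at 84, 69.9 and 79.1 TPM. The forms overlapped in both genes, with differences of 0.04 (95% interval -0.29 to 0.37) and 0.17 (-0.02 to 0.37). PSMD1, a base subunit, was at 21.2, 25.8 and 44.2 TPM, at 60.8, 66.4 and 59.1 TPM and at 60.6, 45.9 and 45.8 TPM, where control replicate 3 lay just below the lowest NFE2L1DC libraries. The assembly chaperone POMP was at 48.1 to 68.7 TPM in control, 92.4 to 101 TPM with NFE2L1 and 80.2 to 89.7 TPM with NFE2L1DC. Limma called 7 of the 32 subunits higher and none lower. The count was 4, 2 and 15 without control replicates 1, 2 and 3, and 16 after correction for GC content and length.

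The list of antioxidant response element genes, the other class of cap'n'collar targets, gave 4 shared higher genes and 1 shared lower gene of 31 tested (12.9% and 3.23%). These shares were near the 9.96% and 5.61% of all tested genes. ABCC3, an export pump, was at 12.5, 12.3 and 16.1 TPM in control, at 38.6, 30.2 and 30.8 TPM with NFE2L1 and at 22.2, 17.5 and 29.5 TPM with NFE2L1DC. SLC7A11, the cystine transporter, was at 0.847 to 2.08 TPM in control, 3.43 to 4.55 TPM with NFE2L1 and 2.16 to 2.89 TPM with NFE2L1DC, so that its lowest NFE2L1DC value was next to its highest control value. OSGIN1 and SRXN1 were the other higher genes, and EPHX1, microsomal epoxide hydrolase, was 1.29-fold lower. The list had a median log2 fold change of 0.16, which became 0.02 after median-of-ratios scaling, equal to that of all genes. HMOX1, heme oxygenase 1, was not shared, since it lay above control with NFE2L1 and below control with NFE2L1DC. Limma called 7 of the 31 higher and 2 lower (22.6% and 6.45%, beside 8.25% and 3.43% of all tested genes). The count of higher genes was 4, 1 and 13 without control replicates 1, 2 and 3. It was 4, 5 and 3 without NFE2L1 replicates 1, 2 and 3, and 6, 6 and 4 without NFE2L1DC replicates 1, 2 and 3.

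Genes of the amino acid response were shared more often, at small size. The factor ATF4 is translated under stress and raises genes of amino acid synthesis and transport. Of 22 tested genes of this list 10 were shared and higher (45.5%, beside 9.96% of all tested genes), 4 of them stable. The median log2 fold change was 0.31 beside 0.14 for all genes. TRIB3, a pseudokinase induced by ATF4, was at 54.3, 49.4 and 44.6 TPM in control, at 108, 115 and 119 TPM with NFE2L1 and at 91.4, 95.4 and 92.9 TPM with NFE2L1DC. CEBPB, a transcription factor that pairs with ATF4, was at 68.7 to 71.6 TPM in control, 112 to 119 TPM with NFE2L1 and 89.4 to 95.1 TPM with NFE2L1DC. Both had tight groups, with the NFE2L1DC line between control and the NFE2L1 line. Limma called 7 of the 22 higher, and 2 without control replicate 2.

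Of 20 tested cytosolic heat shock genes 8 were shared and higher (40.0%, beside 9.96% of all tested genes), 4 of them stable. The constitutive chaperone HSPA8 was at 1248, 1385 and 1819 TPM in control, at 2214, 2287 and 2236 TPM with NFE2L1 and at 2200, 1883 and 2123 TPM with NFE2L1DC, and control replicate 3 came close to NFE2L1DC replicate 2. HSPE1, a mitochondrial cochaperonin, was 1.33-fold and BAG3, a cochaperone, 1.27-fold higher. Limma called 11 of the 20 higher, and 4 after median-of-ratios scaling. The count was 5, 1 and 15 without control replicates 1, 2 and 3. It was 5, 6 and 7 without NFE2L1 replicates 1, 2 and 3, and 5, 9 and 7 without NFE2L1DC replicates 1, 2 and 3. Of 19 tested genes of folding and stress in the endoplasmic reticulum 2 were shared and higher and 2 lower (10.5% each way). Over all tested genes these shares were 9.96% and 5.61%. The 2 lower genes were CRELD2 and CALR, calreticulin, which was 1.13-fold lower. Limma called none of the list higher and these 2 lower, calls that held in 10 (CRELD2) and 6 (CALR) of 19 other settings.

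On the lower side A2M had the largest gap. It encodes alpha-2-macroglobulin, a broad protease inhibitor (chromosome 12, 9067664 to 9116229). A2M was at 106, 101 and 106 TPM in control, at 26.2, 22.3 and 24 TPM with NFE2L1 and at 16.4, 13.5 and 17.2 TPM with NFE2L1DC. The groups were tight and fully separated, and the control mean was 5.23-fold the mean of both forms. The NFE2L1DC line was lowest, with a difference between the forms of 0.60 (SE 0.11, limma adjusted p = 0.0474) that was called in 2 of 18 other settings, with adjusted p from 0.0289 to 0.216. Of the fits that leave out a library, only the fit without control replicate 3 kept this call. PTGS1, cyclooxygenase 1 (chromosome 9, 122370530 to 122395703), was at 18.1, 17.1 and 17.2 TPM, at 5.44, 5.23 and 4.93 TPM and at 5.52, 5.99 and 6.22 TPM. Its forms lay close together without overlap, with a difference of -0.16 (95% interval -0.41 to 0.10, adjusted p = 0.817).

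Hypoxia-responsive genes had the largest share of shared lower genes among the lists with 10 or more genes tested. At low oxygen the factor HIF escapes degradation and raises genes of glycolysis, pH control and mitochondrial turnover. Of 21 tested genes 7 were shared and lower (33.3%, beside 5.61% of all tested genes), all stable. BHLHE40 was shared and higher (4.76%, beside 9.96%). CA9, a carbonic anhydrase of the cell surface (chromosome 9, 35673856 to 35681159), was at 224, 243 and 202 TPM in control, at 114, 117 and 115 TPM with NFE2L1 and at 70.8, 59.6 and 72.4 TPM with NFE2L1DC. PFKFB4, which makes the main activator of phosphofructokinase, was at 16, 22.5 and 14.9 TPM, at 4.53, 6.65 and 5.87 TPM and at 2.93, 4.9 and 3.1 TPM. NDRG1, a stress-induced growth regulator, was at 257, 337 and 172 TPM, at 106, 144 and 129 TPM and at 81.8, 92.7 and 72.4 TPM. In CA9 and NDRG1 the NFE2L1DC line was lowest with no overlap between the forms, and the NDRG1 controls were widely scattered. The other shared lower genes were BNIP3, EGLN3, P4HA2 and LOXL2.

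CA9 differed between the forms by 0.77 (SE 0.10, limma adjusted p = 0.00694), a call held in 17 of 18 other settings and lost under median-of-ratios scaling (adjusted p = 0.094). For NDRG1 the difference was 0.61 (95% interval 0.11 to 1.11, limma adjusted p = 0.49) and for PFKFB4 0.54 (0.04 to 1.03, adjusted p = 0.561). Of the hypoxia list limma called 7 of the 21 genes lower and BHLHE40 higher, with 6 or 7 lower without any single library other than control replicate 2 (4). The list was mixed as a whole. Its median log2 fold change was -0.05, became -0.19 after median-of-ratios scaling and 0.03 without control replicate 3, and VEGFA, ADM, SLC2A1 and PDK1 overlapped with control.

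The 200 bases before the start of CA9 (chr9:35673728-35673927, plus strand, GRCh38.p14, RefSeq promoter table) are shown since this promoter is a standard target of HIF, with capitals for the core of the hypoxia response element, ACGTG on either strand.
CA9: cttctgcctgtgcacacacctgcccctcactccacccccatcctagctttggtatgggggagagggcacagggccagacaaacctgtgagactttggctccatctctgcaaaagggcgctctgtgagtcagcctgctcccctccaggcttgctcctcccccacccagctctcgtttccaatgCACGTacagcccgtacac
The single match lies 18 bases before the start, on the opposite strand. ACGTG was found in 30.9% of the shared lower, 27.6% of the shared higher and 27.6% of all tested genes with a promoter entry, and in 21.6% of all promoters in the table.

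Of 19 tested genes of glycolysis and gluconeogenesis 5 were shared and lower (26.3%, beside 5.61% of all tested genes), 4 of them stable. LDHB was shared and higher (5.26%, beside 9.96%). ALDOC, the brain form of aldolase (chromosome 17, 28573115 to 28577264), was at 91.5, 101 and 87.8 TPM in control, at 39.9, 44 and 45 TPM with NFE2L1 and at 45.3, 46.1 and 43.7 TPM with NFE2L1DC. ENO2, neuronal enolase, was at 111, 78.5 and 84 TPM, at 60.7, 48.1 and 43.4 TPM and at 43.9, 48.1 and 53.5 TPM. ENO3, muscle enolase, which is outside the list, was at 86.4, 79.9 and 75.2 TPM, at 34.1, 34 and 36 TPM and at 44.2, 43.3 and 44.1 TPM. The forms overlapped in ALDOC, with a difference of -0.07 (95% interval -0.26 to 0.13), and in ENO2, while ENO3 was lowest with NFE2L1. GPI, GAPDH and PGK1 were the other shared lower genes, and the main enolase ENO1, PKM and LDHA overlapped with control. Its genes had a median log2 fold change of -0.12, -0.26 after median-of-ratios scaling and -0.03 after correction for GC content and length. Limma called 6 of the 19 lower and LDHB higher, with 9 lower without control replicate 3 and 4 lower without control replicate 1 or 2. The LDHB call was lost without control replicate 1 or 2, NFE2L1 replicate 2 or 3 or NFE2L1DC replicate 3, and under median-of-ratios scaling.

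Cell cycle inhibitors were among the lower genes with close levels in both forms. CDKN1A, the p21 inhibitor of cyclin-dependent kinases and a p53 target (chromosome 6, 36676460 to 36687339), was at 210, 215 and 178 TPM in control, at 102, 107 and 109 TPM with NFE2L1 and at 101, 112 and 101 TPM with NFE2L1DC. CDKN1C, the p57 inhibitor, was at 29.9, 39.6 and 30.8 TPM, at 15.3, 18.3 and 18 TPM and at 15.6, 18.8 and 18 TPM. BTG2, an antiproliferative p53 target, was at 27.6, 29.6 and 30.5 TPM, at 14.6, 15.9 and 14.3 TPM and at 17.1, 16.1 and 16 TPM. The forms overlapped in CDKN1A and CDKN1C, with differences of 0.02 (95% interval -0.18 to 0.22) and -0.02 (-0.33 to 0.29), and for BTG2 the difference was -0.13 (-0.35 to 0.09). Among 19 tested p53 targets BBC3 was the other shared lower gene (15.8% in all, beside 5.61% of all tested genes). PLK3 was shared and higher (5.26%, beside 9.96%), and MDM2, the feedback inhibitor of p53, overlapped with control. The median log2 fold change of the p53 list was 0.04, and -0.10 after median-of-ratios scaling. Limma called 3 of the 19 lower (CDKN1A, BTG2 and FDXR), and 2 without any single library other than control replicate 3 (4). BBC3 was not called, and FDXR overlapped with control. Limma called 2 higher, GDF15 and PLK3, but none after median-of-ratios scaling, 5 without control replicate 3 and 1 or none without any other single library.

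Further large gaps on the lower side were in genes of mixed function. WNT6, a Wnt ligand, was at 30.9, 32 and 28.6 TPM in control, at 12.7, 13.2 and 11.7 TPM with NFE2L1 and at 17.7, 16.1 and 16.8 TPM with NFE2L1DC. INSL4, an insulin-like peptide of the placenta, was at 31.6, 38.7 and 36 TPM, at 12.8, 14.9 and 15 TPM and at 17.7, 19.4 and 16.8 TPM. OLFML2A, an olfactomedin-like matrix protein, was at 67.7, 63.3 and 63.2 TPM, at 25.7, 21.7 and 21.7 TPM and at 38.8, 32.9 and 35.3 TPM. In these 3 genes the NFE2L1 line was lowest, the reverse of CA9 and A2M. OLFML2A differed between the forms by -0.61 (SE 0.10, limma adjusted p = 0.0307), a call held in 8 of 18 other settings with adjusted p from 0.0303 to 0.17. It was lost without control replicate 1 or 2, without NFE2L1 replicate 2 or 3 and without any single NFE2L1DC library. TMPRSS3, a transmembrane serine protease, was at 44.8 to 49.1 TPM in control, 24.8 to 27.3 TPM with NFE2L1 and 25.7 to 27 TPM with NFE2L1DC, with the forms on the same level. CLIC3, an intracellular chloride channel protein, and ADSSL1, an adenylosuccinate synthase, were 2.36-fold and 2.07-fold lower.

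Of 54 tested cytosolic ribosomal protein genes 11 were shared and lower (20.4%, beside 5.61% of all tested genes) and none higher. None was a stable shared gene. RPL13A was at 5073, 5037 and 4597 TPM in control, at 3726, 3999 and 3959 TPM with NFE2L1 and at 4118, 4416 and 4408 TPM with NFE2L1DC. The gap was thus narrow, and its genes had a median log2 fold change of -0.16, beside -0.31 after median-of-ratios scaling and -0.07 after correction for GC content and length. Limma called 10 of the 54 lower, 3 after median-of-ratios scaling, and none without control replicate 1 or 2 but 27 without control replicate 3. The count was 2, 7 and 2 without NFE2L1 replicates 1, 2 and 3, and 5, 11 and 4 without NFE2L1DC replicates 1, 2 and 3. Of the 13 mitochondrially encoded genes 3 were shared and lower (23.1%, beside 5.61%). They were left out in a setting that the stable shared genes had to pass, so none could be stable. After median-of-ratios scaling 3 were shared and lower, and 1 was after correction for GC content and length. MT-ND3, a complex I subunit, led these genes, at 4861, 4886 and 4676 TPM, at 3821, 3451 and 3529 TPM and at 3801, 4108 and 3651 TPM. Processed pseudogenes, 92 of the shared lower genes, share sequence with such abundant transcripts, and the part of reads with more than a single origin was not tested.

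Lists of the cell cycle and of lipid metabolism differed in their shares of shared genes. Over all tested genes 9.96% were shared and higher and 5.61% shared and lower. Of 20 tested S phase genes 4 were shared and higher (20%), by at most 1.37-fold (UHRF1). Limma called 2 of the 20 higher, and none without control replicate 2 but 9 without control replicate 3. Of 20 mitosis genes AURKB was shared and higher (5%) and KIF20A lower (5%). Of 21 genes of cholesterol synthesis and uptake none was shared and higher, and MVD was shared and lower (4.76%). Of 15 genes of fatty acid synthesis and lipid handling, CPT1A, the gatekeeper of mitochondrial fatty acid oxidation, was shared and higher (6.67%). It was at 44.8 to 48.1 TPM in control, 63.4 to 64.7 TPM with NFE2L1 and 59.8 to 69.5 TPM with NFE2L1DC. SREBF1, the regulator of lipid synthesis, was shared and lower, at 162 to 171 TPM in control, 125 to 133 TPM with NFE2L1 and 119 to 121 TPM with NFE2L1DC. The other shared lower gene of this list (13.3% in all) was FADS2, a fatty acid desaturase, which was at 42.7 to 49.2 TPM in control, 38.3 to 39.8 TPM with NFE2L1 and 38.5 to 41.5 TPM with NFE2L1DC.

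At the edge of the rule the groups touched. BRPF1 lay just inside, with 25.5 TPM both as the lowest overexpressing and the highest control value when rounded to 3 digits, and TMEM5 just outside with 14.5 TPM for both. On the lower side COQ8B was just inside, with 24.0 TPM on both sides, and HIGD2A just outside, with 383 TPM on both sides.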

How the data were processed

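The table deposited by the authors gives TPM per gene for 9 libraries, 58174 Ensembl genes on GRCh38, of which 57836 matched GENCODE 29. Per the submitters' processing notes, CASAVA and the build GRCh38 were used; no quantifier is named in the labels. Per the labels, total RNA was extracted with Trizol. TPM keeps no depth, so no count model or counting interval was used, and the 3 libraries per group limit the precision.

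Genes with at least 1 TPM in at least 3 libraries were kept (14118). Values were taken as log2(TPM + 1), which understates changes of low genes, and tested with limma 3.58.1 (R 4.3.3) with an intensity trend in the prior, 1 mean per group, and 2 contrasts: the mean of both forms minus control, and NFE2L1 minus NFE2L1DC. Adjusted p are Benjamini-Hochberg over all kept genes. Intervals are 95% with 3.34 prior degrees of freedom added. The script was tested on simulated data. Named genes (136) were NFE2L1 and its relatives and, among shared protein-coding genes with a higher group mean of at least 10 TPM, the 15 with the largest gap each way, the 6 highest and 6 lowest called differences between the forms and the 5 with the smallest such difference at a pooled log2 fold change of at least 1 in size; then up to 4 shared genes per list by fold change, and 4 each way at the edge of the rule. The members and lists were chosen with earlier results of these data known. Alternatives were another pseudocount, other filters and scalings, a GC content and length correction, a replicate block, a 2-group fit, a prior without trend and leaving out each library.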

Additional observations from a re-analysis of the deposited data

Results flagged for a closer look

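In 6 overexpressing libraries, NFE2L1DC replicate 2 lay far from the others for COL18A1, a basement membrane collagen (17.7 TPM), and for SDHC, a succinate dehydrogenase subunit (91.7 TPM). The gap test used flags about 1 in 20 groups by chance.

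Among the named shared genes, 25 differed between the forms by limma's test of NFE2L1 minus NFE2L1DC. Interferon-stimulated genes and the ligand EPGN had the largest log2 differences, 2.65 for ISG15, 2.48 for UBE2L6, 2.25 for EPGN, 2.20 for IFI27, 2.16 for OAS1, 2.10 for HELZ2, 1.97 for OASL, 1.76 for IFI6 and 1.32 for IFI44. All but IFI44, whose call held in 12 of 18 other settings, were called in every other setting. Genes of antigen presentation and complement differed by 0.89 (HLA-B), 0.86 (PSMB9), 0.68 (TAP1) and 0.84 (CFB). ERK feedback, ETS and matrix genes differed by 1.06 (DUSP4), 0.85 (ETV4), 1.03 (SERPINE2) and 0.51 (FN1), and BHLHE40, a circadian repressor also induced by hypoxia, by 0.72.

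Of the lower genes, CA9 (0.77) and A2M (0.60) were higher with NFE2L1 than with NFE2L1DC. OLFML2A (-0.61), NT5DC2 (-0.54), HPD (-0.52), PINK1 (-0.48) and ALDH3A1 (-0.46) were lower. The calls of A2M and ALDH3A1 held in 2 of 18 other settings, that of FN1 in 1 and that of PINK1 in 4.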

How the results depend on the processing

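No named gene called in the pooled contrast or between the forms changed direction in any of the 19 alternative settings that tested it. The balance of the counts did change, since more genes were lower than higher under median-of-ratios scaling. Of 110 named genes called in the pooled contrast 57 were called in every setting, and of 25 called between the forms 8 were. Leaving out each library gave 314 to 4198 genes called higher, 131 to 851 called lower, 1504 to 5137 shared and higher, 860 to 1304 shared and lower, 22 to 58 shared genes higher with NFE2L1 than with NFE2L1DC and 1 to 7 lower. The fewest calls came without control replicate 2 (314 and 131) and the most without control replicate 3; the cause was not tested.

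Median-of-ratios scaling gave 610 genes called higher beside 628 lower, 919 shared and higher beside 952 lower, 31 shared genes higher with NFE2L1 and 0 lower. With genes above 0 in at least 3 libraries kept, which tests more genes, 752 were called higher. After correction for GC content and length 517 genes were shared and lower beside 1762 higher, and 348 were called lower beside 1625 higher. The 5 shared genes lower with NFE2L1 became 3 with a pseudocount of 0.1 or a filter on the mean, and 1 with no trend in the prior. The causes were not tested.

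Whether replicate numbers pair the libraries is not stated. The correlations of deviations from the group mean ran from -0.189 to 0.109 for same-numbered libraries and from -0.182 to 0.276 for differently numbered ones. With 3 libraries per group these correlations cannot decide it. With the replicate number as a block 734 genes were called higher and 298 lower, and 26 shared genes were higher with NFE2L1 and 2 lower. With the replicate block and the GC correction together 244 genes were called lower, and 32 shared genes were higher with NFE2L1 and 2 lower.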

Other observations

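Genes outside the lists and the naming rule, chosen after their values were seen, add to the lower side. MIR210HG, the host transcript of a microRNA induced by hypoxia, averaged 11.9 TPM in control, 3.95 TPM with NFE2L1 and 2.40 TPM with NFE2L1DC. EDN2, endothelin 2, a vasoactive peptide, averaged 8.22, 1.5 and 2.65 TPM in the same groups. IGFBP3, a carrier of insulin-like growth factors, averaged 168 TPM in control, 109 TPM with NFE2L1 and 68.9 TPM with NFE2L1DC, and its difference between the forms was 0.65 (limma adjusted p = 0.0153).

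HMOX1, of the antioxidant response list and also chosen after its values were seen, lay on opposite sides of control in the 2 forms, at 35, 43.8 and 29.8 TPM in control, at 262, 288 and 287 TPM with NFE2L1 and at 23.8, 28.1 and 28.3 TPM with NFE2L1DC. Its pooled log2 fold change of 1.26 is the mean of both, and the difference between the forms was 3.34 (limma adjusted p = 5.79e-06).

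By chromosome, the shared higher genes made up 7.17% (chromosome 13) to 13.7% (chromosome 9) of the tested genes, and the shared lower genes 2.79% (chromosome 4) to 9.56% (chromosome 22).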
